A study of Homo sapiens with 18 samples.

Results

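The 51 genes described here encode proteins that license and fire replication origins, build the replication fork, supply nucleotides and regulate S phase. They were chosen by function, as a list of gene symbols, with earlier results of these data known, so the counts below are not independent of the data. All probes carrying one of those symbols in the platform annotation were taken, which gave 79 of the 47231 probes on the array. Of the 51 genes, 50 were measured. CCNE2, 1 of the genes for cyclin E, was not tested, because its single probe was detected on 0 arrays.

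HEK293, a line derived from human embryonic kidney, was profiled on 18 Illumina bead arrays. The groups were p65 S547A cells untreated, after 4 h and after 8 h of etoposide, and p65 wt cells untreated, after 4 h and after 8 h, with 3 arrays each from experiments that the series text describes as independent. In every group, controls included, endogenous p65 was knocked down with siRNA and an HA-tagged p65 that the siRNA does not target was supplied by lentivirus. p65 is the RELA protein, an activating subunit of NF-kB, and in S547A a serine of p65 is replaced with alanine. Etoposide traps topoisomerase II on cut DNA and so leaves strand breaks; its dose is not given in the sources used here. The comparisons ask how replication transcripts move over 8 h of etoposide and whether the S547A line moves in another way.

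Replication starts when the origin recognition complex, with CDC6 and CDT1, loads the MCM helicase onto DNA in G1. In S phase, kinases, CDC45 and the GINS complex turn the loaded helicase into a moving fork, on which the polymerases, the PCNA clamp and its loader, RPA, FEN1 and LIG1 copy both strands. Many of these genes are transcribed around the G1/S transition under E2F transcription factors, while the mitotic genes peak later in the cycle. In cultured human cells, etoposide is known to activate checkpoints that hold cells in S and G2 phase.

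The share of probes detected on an array was 35.8% to 39.2%, and 12055 genes were tested. Every log2 value below is a normalized log2 intensity, a level cannot be set against that of another gene, and a change is a difference of group means from 1 limma fit over all arrays with Benjamini-Hochberg adjustment over all genes. Genes with an adjusted p under 0.05 are described as called, and as having risen or fallen. Whether the RELA probe reads endogenous transcript, supplied transcript or both is not known here. RELA was detected on all 18 arrays and was higher in untreated S547A than in untreated wt cells by a log2 of 1.07 (adjusted p = 0.018). The difference was not called at 4 h (0.73, adjusted p = 0.127) or 8 h (0.47, 0.557). RELA rose with etoposide by 1.29 at 4 h and 0.83 at 8 h in S547A cells and by 1.63 and 1.43 in wt cells, all called. All 7 markers of HEK293 cells, such as VIM and NEFL, were detected on at least 17 arrays, whereas PTPRC and CD3E of blood, PDGFRB of fibroblasts and CYP3A4 of liver were detected on 0. CD14 of monocytes, COL1A1 and COL3A1 of fibroblasts and ALB of liver gave a detected probe on 15, 13, 13 and 16 arrays. In bulk RNA, more cells of one cycle phase and more RNA per cell cannot be told apart.

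At 8 h of etoposide the replication genes were higher in both lines, from the licensing factors CDT1 and ORC1 to the fork factors MCM10, GINS3 and POLD3 and the S-phase enzymes FEN1 and TK1. In S547A cells 22 of the 50 measured genes rose and 1 fell, where 30.5% of all genes tested were called, 16.1% as higher and 14.3% as lower. In wt cells 28 rose and 0 fell, where 29.7% of all genes were called, 16.5% as higher and 13.2% as lower. The median change of the 50 genes was 0.39 in S547A and 0.43 in wt cells, beside medians of -0.01 in S547A and -0.003 in wt cells over all genes. With arrays scaled to a common median, which moved the median of all genes by -0.10 in S547A and -0.04 in wt cells, the medians of the 50 genes were 0.20 and 0.28. An increase of at least 2-fold was seen for 6 of the 50 in S547A cells and 3 in wt cells, against 499 and 508 of all 12055 genes. The 8 h and untreated arrays did not overlap for 33 of the 50 genes in S547A cells and for 33 in wt cells, where 42% and 44% of all genes showed no overlap.

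**Figure D1:**
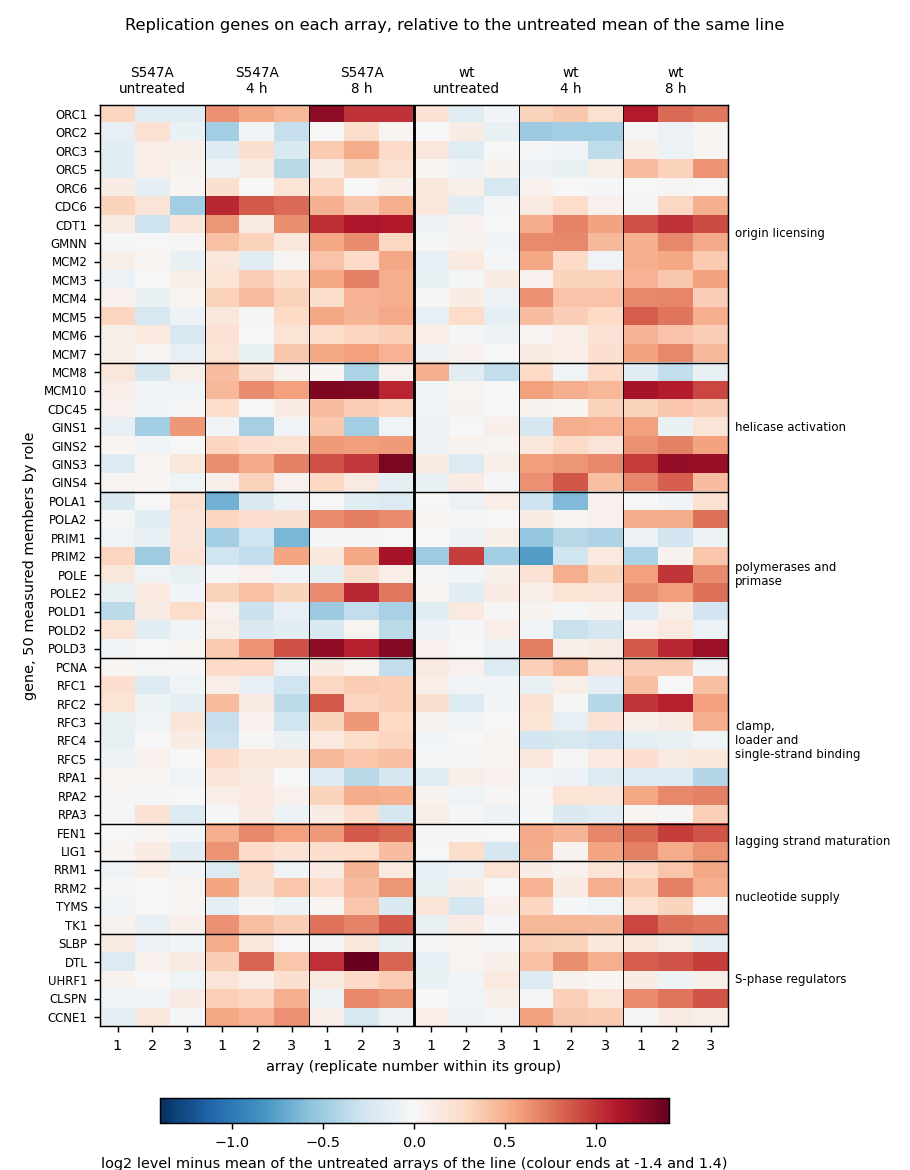
Each cell is the normalized log2 level of 1 gene on 1 array minus the mean of the 3 untreated arrays of the same line, with S547A arrays left and wt arrays right and genes ordered by role. Most rows turn red at 8 h in both lines, where 22 of 50 genes were called higher in S547A and 28 in wt cells, while 2 of the 9 clamp, loader and single-strand binding genes were called higher in each line.

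The genes called higher at 8 h were largely shared. Of them, 20 were called in both lines, which is 90.9% of the 22 in S547A cells and 71.4% of the 28 in wt cells. They are ORC1, CDT1, GMNN, MCM2, MCM3, MCM4, MCM5, MCM7, MCM10, CDC45, GINS2, GINS3, POLA2, POLE2, POLD3, RPA2, FEN1, RRM2, TK1 and DTL. ORC3 and RFC5 were called in S547A cells alone, and ORC5, MCM6, GINS4, POLE, RFC2, LIG1, RRM1 and CLSPN in wt cells alone, but no difference between the lines passed the test for any of these 10 genes. Across the 50 genes, the 8 h changes of the 2 lines correlated at a Pearson r of 0.81 and a Spearman rho of 0.77, a description over genes that share arrays and normalization within a line. Over all 12055 genes Pearson r was 0.82.

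Promoters are shown because 20 of the 50 measured genes rose at 8 h in both lines and the family is known for E2F-controlled transcription. Promoter windows of 300 bases, from 250 before to 50 after the annotated start, were taken from a table of RefSeq promoters (assembly GRCh38.p14), in which 44 of the 51 genes were matched with 56 windows, 9 of them with more than 1 start. They were searched on both strands for the E2F-type words TTTCCCGC, TTTGGCGC, TTTCGCGC and TTTGCCGC, which may overlap one another. The windows below run from 75 bases before to 5 after the start, 5′ to 3′ in the direction of the gene, with E2F-type words in capitals. Of the genes that rose at 8 h in both lines and have their values on every array given, 6 hold such a word and come first. MCM10, ORC1, FEN1, TK1 and RRM2 rose in both lines and hold none, as MCM10, ORC1 and FEN1 show, and PRIM1, which fell at 4 h, holds none.
CDT1 (chr16:88803714-88803793, plus strand): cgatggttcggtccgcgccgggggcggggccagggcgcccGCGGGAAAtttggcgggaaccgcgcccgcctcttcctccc
GINS2 (chr16:85688950-85689029, minus strand): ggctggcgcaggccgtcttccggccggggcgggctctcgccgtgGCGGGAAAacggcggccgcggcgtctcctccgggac
GINS3 (chr16:58392396-58392475, plus strand): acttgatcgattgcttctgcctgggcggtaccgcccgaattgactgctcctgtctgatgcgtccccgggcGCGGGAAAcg
POLE2 (chr14:49688210-49688289, minus strand): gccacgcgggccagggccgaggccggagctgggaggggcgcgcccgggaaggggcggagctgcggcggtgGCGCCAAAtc
POLA2 (chr11:65261887-65261966, plus strand): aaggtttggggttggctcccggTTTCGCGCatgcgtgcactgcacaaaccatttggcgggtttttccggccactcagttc
DTL (chr1:212035673-212035752, plus strand): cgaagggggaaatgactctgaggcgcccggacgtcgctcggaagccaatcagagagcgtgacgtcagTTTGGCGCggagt
MCM10 (chr10:13161483-13161562, plus strand): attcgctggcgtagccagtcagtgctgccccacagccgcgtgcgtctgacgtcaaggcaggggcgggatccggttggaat
ORC1 (chr1:52404419-52404498, minus strand): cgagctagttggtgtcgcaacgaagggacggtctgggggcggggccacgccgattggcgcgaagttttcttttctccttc
FEN1 (chr11:61792836-61792915, plus strand): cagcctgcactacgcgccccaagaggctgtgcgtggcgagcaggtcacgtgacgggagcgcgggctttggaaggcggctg
PRIM1 (chr12:56752319-56752398, minus strand): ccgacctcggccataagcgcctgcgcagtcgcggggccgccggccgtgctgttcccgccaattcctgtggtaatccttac

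An E2F-type word was present in 24 of the 56 windows (42.9%), against 1164 of 35116 windows of all genes (3.31%) and 4.85% of the windows of genes tested. CCAAT, the letters of the CCAAT box that NF-Y binds, was found in 60.7% of the 56 windows, 34.6% of all windows and 35.5% of the windows of genes tested. Of the windows of genes that rose in both lines at 8 h, 10 of 23 (43.5%) held an E2F-type word. Of those of genes called higher in neither line, 9 of 24 (37.5%) did. Some genes have several windows, and counted by gene these were 10 of 16 and 8 of 19. Neither difference was tested. A match is a description of these letters and is not evidence of binding.

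**Figure D2:**
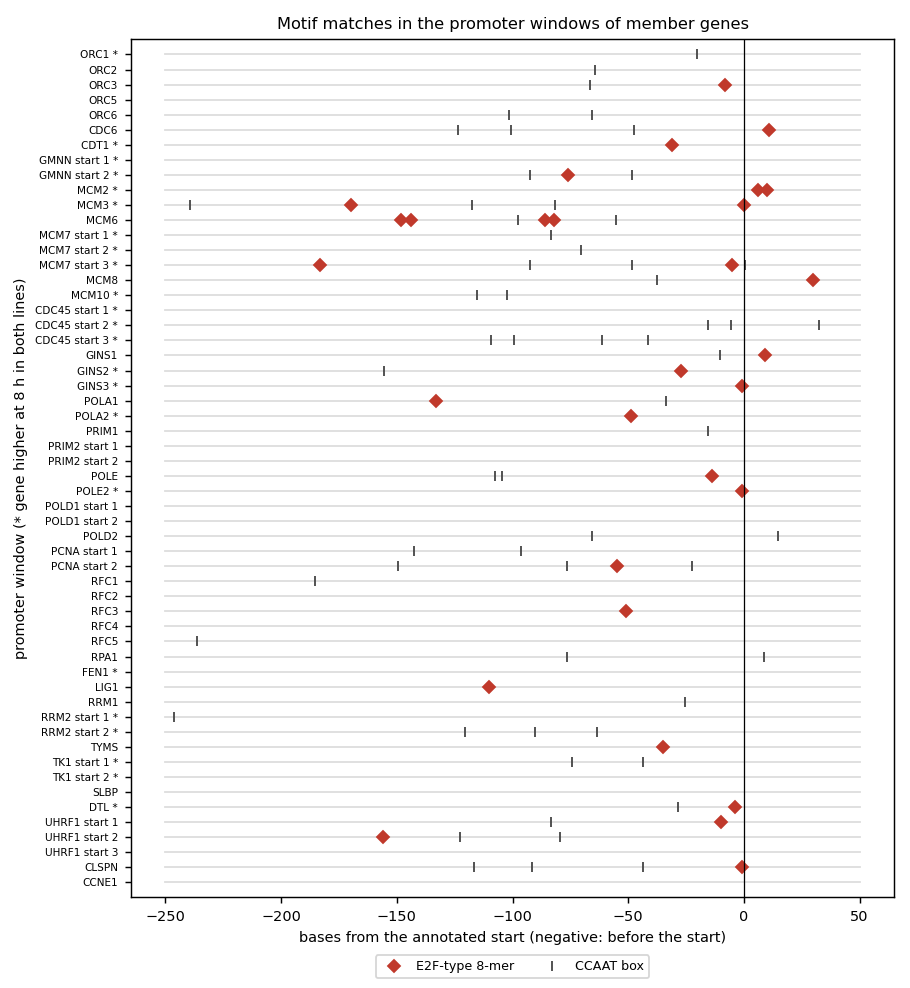
Positions of E2F-type words (diamonds) and CCAAT (ticks) along the 56 promoter windows, in bases from the annotated start, with an asterisk on genes called higher at 8 h in both lines. E2F-type words lie in 24 windows, with and without an asterisk.

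Of the 14 licensing genes, 9 rose at 8 h in S547A and 10 in wt cells, and 0 fell in either. Of all genes, 16.1% were called higher and 14.3% lower in S547A, and 16.5% and 13.2% in wt cells. CDT1, which brings the MCM helicase to origins and is kept in check by GMNN (geminin), was at 10.30, 9.90 and 10.36 in untreated S547A cells, 10.80, 10.31 and 10.84 at 4 h, and 11.22, 11.32 and 11.31 at 8 h. In wt cells CDT1 was at 10.14, 10.27 and 10.22 untreated, 10.73, 10.91 and 10.77 at 4 h, and 11.10, 11.22 and 11.12 at 8 h. All 8 h arrays lay above all untreated arrays in each line, and at 4 h the S547A arrays overlapped with the untreated ones. CDT1 rose at 8 h by 1.10 ± 0.15 in S547A and 0.93 ± 0.15 in wt cells (log2 change ± SE; adjusted p = 2.79e-05 and 0.000138). At 4 h CDT1 was at 0.46 in S547A cells without a call (adjusted p = 0.0551), and its rise of 0.59 in wt cells (0.0143) lost its call without untreated replicate 1 (0.0561) or 4 h replicate 2 (0.0614).

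ORC1, the largest subunit of the origin recognition complex, was at 7.68, 7.24 and 7.23 in untreated S547A cells, 8.02, 7.92 and 7.85 at 4 h, and 8.64, 8.40 and 8.39 at 8 h. In wt cells ORC1 was at 7.64, 7.27 and 7.40 untreated, 7.75, 7.81 and 7.65 at 4 h, and 8.55, 8.23 and 8.17 at 8 h. In both lines replicate 1 was the highest of the untreated and of the 8 h arrays, and the 4 h and 8 h arrays lay above the untreated ones. ORC1 rose at 8 h by 1.09 ± 0.15 in S547A and 0.88 ± 0.15 in wt cells (adjusted p = 3.31e-05 and 0.000263). At 4 h ORC1 rose by 0.54 in S547A cells (adjusted p = 0.0275), a call that ended without untreated replicate 2 or 3 or without any 1 of the 4 h arrays (adjusted p = 0.0537 to 0.11), and its wt change of 0.30 was not called (0.238).

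MCM5, a subunit of the hexameric helicase, was at 10.17, 9.64 and 9.79 in untreated S547A cells, 10.03, 9.84 and 10.15 at 4 h, and 10.41, 10.34 and 10.40 at 8 h. In wt cells MCM5 was at 9.57, 9.95 and 9.55 untreated, 10.12, 10.04 and 9.97 at 4 h, and 10.54, 10.44 and 10.20 at 8 h. The 8 h arrays lay above the untreated arrays in both lines, with untreated S547A replicate 1 the nearest to them. MCM5 rose at 8 h by 0.52 ± 0.15 in S547A and 0.71 ± 0.15 in wt cells (adjusted p = 0.0148 and 0.00195). The S547A call ended without untreated replicate 2 (0.0782) or replicate 3 (0.0515).

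The 8 h changes of the other helicase subunits were also above zero. MCM2, MCM3, MCM4 and MCM7 were called in both lines, with changes of 0.40, 0.59, 0.42 and 0.53 in S547A and 0.47, 0.48, 0.56 and 0.56 in wt cells. MCM6 was at 0.29 in S547A cells without a call (adjusted p = 0.0663) and rose by 0.41 in wt cells. With arrays scaled to a common median in place of quantile normalization, the calls of MCM2, MCM3, MCM4 and MCM7 in S547A cells and of MCM3, MCM6 and MCM7 in wt cells ended, with no change of sign. GMNN, the inhibitor of CDT1, rose at 8 h by 0.50 in S547A and 0.56 in wt cells (adjusted p = 0.00365 and 0.00167). CDC6, the ATPase that loads the helicase together with CDT1, was detected on 2 of 3 untreated S547A arrays and followed another course: in S547A cells it rose by 0.90 at 4 h (adjusted p = 0.00336) and was at 0.46 at 8 h without a call (0.058), and in wt cells it was at 0.15 and 0.27 without a call.

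ORC2, another subunit of the origin complex, was at 8.59, 8.92 and 8.61 in untreated S547A cells, 8.22, 8.67 and 8.38 at 4 h, and 8.70, 8.95 and 8.75 at 8 h. In wt cells ORC2 was at 8.83, 8.93 and 8.72 untreated, 8.32, 8.34 and 8.35 at 4 h, and 8.84, 8.75 and 8.87 at 8 h. S547A arrays of 4 h overlapped with the untreated ones, whereas the 3 wt arrays of 4 h lay below all other wt arrays. At 4 h ORC2 was at -0.29 in S547A cells without a call (adjusted p = 0.207) and fell by 0.49 in wt cells (0.0238). The wt call ended without untreated replicate 1 or 2 or without any 1 of the 4 h arrays (adjusted p = 0.0582 to 0.0939).

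Among the 7 genes of helicase activation, 4 rose at 8 h in S547A (57.1%) and 5 in wt cells (71.4%). The shares of all genes called higher were 16.1% and 16.5%. MCM10, which helps the loaded helicase start to unwind, was at 9.32, 9.19 and 9.18 in untreated S547A cells, 9.69, 9.89 and 9.80 at 4 h, and 10.54, 10.53 and 10.30 at 8 h. In wt cells MCM10 was at 9.26, 9.34 and 9.30 untreated, 9.87, 9.81 and 9.77 at 4 h, and 10.45, 10.40 and 10.23 at 8 h. The 3 times did not overlap in either line. In S547A cells MCM10 rose by 0.56 ± 0.11 at 4 h and by 1.22 ± 0.11 at 8 h (adjusted p = 0.00273 and 3.77e-07), and in wt cells by 0.52 ± 0.11 and 1.06 ± 0.11 (0.00474 and 1.69e-06). It was also higher at 8 h than at 4 h, by 0.66 in S547A and 0.54 in wt cells (adjusted p = 0.000867 and 0.0038). Its 4 h call in S547A cells ended when the fit held the compared groups alone (adjusted p = 0.0609).

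GINS3, a subunit of the 4-protein GINS complex that travels with the helicase, was at 9.36, 9.56 and 9.69 in untreated S547A cells, 10.19, 10.07 and 10.24 at 4 h, and 10.44, 10.53 and 10.86 at 8 h. In wt cells GINS3 was at 9.57, 9.28 and 9.55 untreated, 10.05, 10.08 and 10.14 at 4 h, and 10.45, 10.70 and 10.69 at 8 h. The 3 times did not overlap in either line. In S547A cells GINS3 rose by 0.63 ± 0.14 at 4 h and by 1.07 ± 0.14 at 8 h (adjusted p = 0.00657 and 1.63e-05), and in wt cells by 0.62 ± 0.14 and 1.15 ± 0.14 (0.0062 and 8.45e-06). Its 4 h call in S547A cells ended when the fit held the compared groups alone (0.0578).

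GINS2, of the same complex, was at 11.18, 11.11 and 11.16 in untreated S547A cells, 11.45, 11.39 and 11.36 at 4 h, and 11.75, 11.73 and 11.75 at 8 h. In wt cells GINS2 was at 11.17, 11.31 and 11.29 untreated, 11.40, 11.53 and 11.44 at 4 h, and 11.90, 11.96 and 11.82 at 8 h. The times did not overlap in either line, although the steps were small. GINS2 rose at 8 h by 0.59 ± 0.10 in S547A and 0.63 ± 0.10 in wt cells (adjusted p = 0.000169 and 9.29e-05), which became 0.32 and 0.45 when arrays were scaled to a common median in place of quantile normalization.

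The remaining genes of this role split. CDC45, which joins GINS and the MCM ring in the active helicase, rose at 8 h by 0.36 in S547A and 0.35 in wt cells (adjusted p = 0.0204 and 0.0235), and both calls ended with common-median scaling. GINS4 was at 0.15 in S547A cells at 4 h and at 0.09 at 8 h without a call, and in wt cells it rose by 0.64 and 0.65 (adjusted p = 0.0088 and 0.00289). The 4 h call of GINS4 ended without wt 4 h replicate 2 (0.0515). GINS1 was dim, detected on 8 of 18 arrays and on none of the untreated wt arrays, and was not called at 4 h or 8 h. MCM8, which works with MCM9 in recombination repair, was at -0.12 in S547A and -0.21 in wt cells at 8 h without a call.

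**Figure D3:**
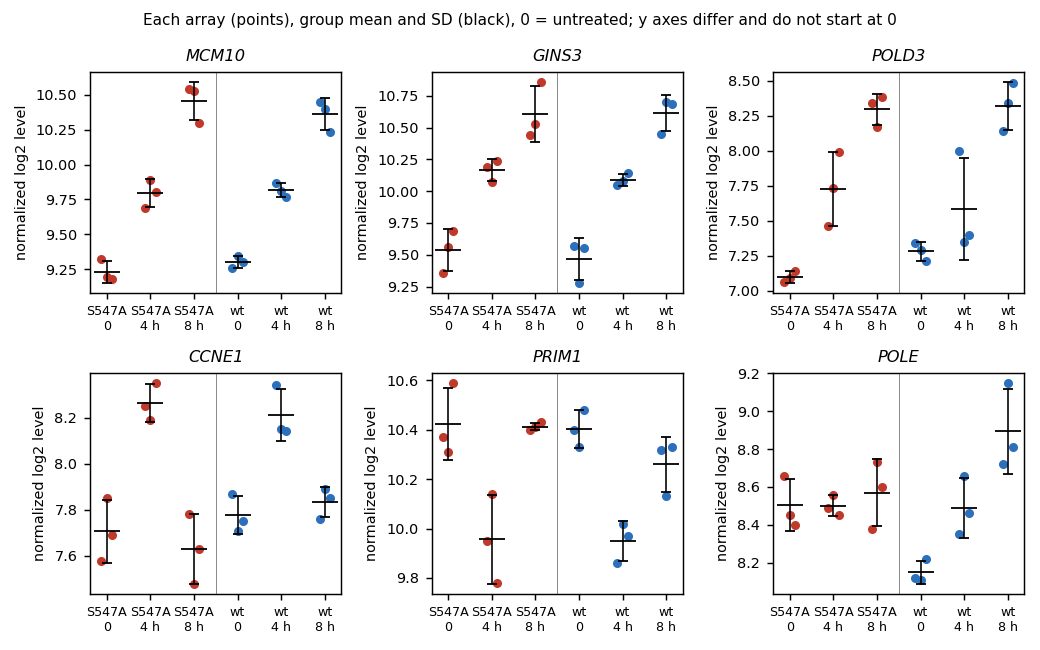
Normalized log2 level of 6 genes on every array (points), with the mean and SD of each group of 3 in black; S547A groups stand left of wt groups, 0 marks untreated cells, and the y axes differ and do not start at 0. MCM10 and GINS3 climb at each time in both lines, CCNE1 is high at 4 h alone, and PRIM1 is lowest at 4 h. The untreated POLE arrays of S547A lie above those of wt, a difference that did not pass the test (limma, adjusted p = 0.779).

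Of the 9 polymerase and primase genes, 3 rose and 1 fell at 8 h in S547A cells, and 4 rose and 0 fell in wt cells. Of all genes, 16.1% were called higher and 14.3% lower in S547A, and 16.5% and 13.2% in wt cells. POLD3, an accessory subunit of the lagging-strand polymerase delta, was at 7.06, 7.09 and 7.14 in untreated S547A cells, 7.46, 7.73 and 7.99 at 4 h, and 8.34, 8.17 and 8.38 at 8 h. In wt cells POLD3 was at 7.34, 7.29 and 7.21 untreated, 8.00, 7.35 and 7.40 at 4 h, and 8.14, 8.34 and 8.48 at 8 h. At 4 h, wt replicate 1 stood well above the other 2 arrays of its group, and the S547A arrays lay above all untreated ones. POLD3 rose at 8 h by 1.20 ± 0.17 in S547A and 1.04 ± 0.17 in wt cells (adjusted p = 4.06e-05 and 0.000163). Its 4 h rise of 0.63 in S547A cells (0.0229) lost the call without any 1 of the untreated arrays or without 4 h replicate 2 or 3 (adjusted p = 0.0522 to 0.116).

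POLE2, the second subunit of the leading-strand polymerase epsilon, was at 9.59, 9.83 and 9.66 in untreated S547A cells, 10.02, 10.10 and 10.00 at 4 h, and 10.35, 10.75 and 10.43 at 8 h. In wt cells POLE2 was at 9.82, 9.65 and 9.91 untreated, 9.87, 9.98 and 9.97 at 4 h, and 10.44, 10.38 and 10.56 at 8 h. The 8 h arrays lay above all earlier arrays of the line. POLE2 rose at 8 h by 0.82 ± 0.12 in S547A and 0.67 ± 0.12 in wt cells (adjusted p = 8.97e-05 and 0.000581), and its 4 h changes of 0.34 and 0.15 were not called.

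POLA2, the regulatory subunit of polymerase alpha, which lays down primers with primase, was at 9.84, 9.70 and 10.02 in untreated S547A cells, 10.15, 10.09 and 10.08 at 4 h, and 10.52, 10.57 and 10.51 at 8 h. In wt cells POLA2 was at 10.10, 10.06 and 10.07 untreated, 10.18, 10.11 and 10.14 at 4 h, and 10.60, 10.60 and 10.85 at 8 h. The 8 h arrays again lay above all earlier ones in both lines. POLA2 rose at 8 h by 0.68 ± 0.11 in S547A and 0.61 ± 0.11 in wt cells (adjusted p = 0.000148 and 0.00042).

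PRIM1, the catalytic subunit of primase, moved the other way at 4 h. It was at 10.37, 10.31 and 10.59 in untreated S547A cells, 9.95, 10.14 and 9.78 at 4 h, and 10.40, 10.41 and 10.43 at 8 h. In wt cells PRIM1 was at 10.40, 10.33 and 10.48 untreated, 9.86, 10.02 and 9.97 at 4 h, and 10.32, 10.13 and 10.33 at 8 h. The 4 h arrays lay below all other arrays in each line. PRIM1 fell at 4 h by 0.47 in S547A and 0.46 in wt cells (adjusted p = 0.0172 and 0.0188) and was at -0.01 and -0.15 at 8 h without a call. The S547A call ended without untreated replicate 3 (0.0864) or 4 h replicate 3 (0.0933), and the wt call without untreated replicate 1 (0.0538) or 3 (0.0761) or 4 h replicate 1 (0.0803). Before rounding, the wt arrays of 8 h also lay below all untreated wt arrays. The other probe of PRIM1 was at -0.49 in S547A and -0.54 in wt cells at 4 h, and at -0.09 and -0.38 at 8 h. Adjusted over all kept probes, only its wt change at 4 h was called (limma, adjusted p = 0.0493).

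POLD1, the catalytic subunit of polymerase delta, was at 7.74, 8.21 and 8.36 in untreated S547A cells, 8.16, 7.80 and 7.99 at 4 h, and 7.59, 7.76 and 7.65 at 8 h. In wt cells POLD1 was at 7.84, 8.13 and 8.01 untreated, 8.04, 7.97 and 8.04 at 4 h, and 7.81, 8.06 and 7.72 at 8 h. Untreated S547A replicate 1 lay within the range of the 8 h arrays. POLD1 fell at 8 h by 0.44 in S547A cells (adjusted p = 0.0383), a call that ended without untreated replicate 2 or 3 or without any 1 of the 8 h arrays (adjusted p = 0.0514 to 0.173), and it was at -0.13 in wt cells without a call. POLE, the catalytic subunit of polymerase epsilon, was at 0.07 in S547A cells without a call and rose by 0.74 in wt cells (0.000511). POLA1, POLD2 and PRIM2 were not called at 4 h or 8 h in either line, and PRIM2 was detected on 8 of 18 arrays.

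Of the 9 clamp, loader and single-strand binding genes, 2 rose at 8 h in each line (22.2%, where 16.1% of all genes were called higher in S547A and 16.5% in wt cells), and 0 were called at 4 h in either (limma; 0 in S547A and 2 in wt cells at an unadjusted p under 0.05). RPA2, the middle subunit of the single-strand binding protein RPA, was at 11.68, 11.65 and 11.66 in untreated S547A cells, 11.76, 11.80 and 11.72 at 4 h, and 11.97, 12.18 and 12.16 at 8 h. In wt cells RPA2 was at 11.73, 11.62 and 11.70 untreated, 11.70, 11.87 and 11.86 at 4 h, and 12.23, 12.36 and 12.39 at 8 h. The 8 h arrays lay above all earlier arrays of the line.

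RPA2 rose at 8 h by 0.44 ± 0.10 in S547A and 0.64 ± 0.10 in wt cells (adjusted p = 0.00348 and 0.000156). With arrays scaled to a common median these changes of RPA2 were 0.11, no longer called (adjusted p = 0.491), and 0.41. RFC5, a small subunit of the loader that places PCNA on DNA, rose by 0.42 in S547A cells (0.00294, and 0.0664 with common-median scaling) and was at 0.17 in wt cells without a call. RFC2, of the same loader, was at 0.50 in S547A cells without a call (0.0989) and rose by 0.89 in wt cells (0.00556). PCNA, the sliding clamp, was at -0.07 in S547A and 0.22 in wt cells, and RPA1, the large subunit of RPA, at -0.27 and -0.26, all 4 without a call.

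Of the pair of lagging-strand genes, FEN1 rose at 4 h and 8 h in both lines and LIG1 at 8 h in wt cells. FEN1, the nuclease that trims flaps between Okazaki fragments, was at 11.30, 11.32 and 11.26 in untreated S547A cells, 11.80, 11.97 and 11.87 at 4 h, and 11.89, 12.15 and 12.10 at 8 h. In wt cells FEN1 was at 11.14, 11.18 and 11.17 untreated, 11.69, 11.64 and 11.85 at 4 h, and 11.97, 12.13 and 12.04 at 8 h. Etoposide arrays of both times lay above the untreated arrays in both lines, and the 4 h and 8 h arrays of S547A cells overlapped.

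In S547A cells FEN1 rose by 0.59 ± 0.11 at 4 h and by 0.75 ± 0.11 at 8 h (adjusted p = 0.00186 and 5.15e-05), and in wt cells by 0.56 ± 0.11 and 0.88 ± 0.11 (0.00256 and 1.08e-05). Scaled to a common median, the 8 h change of FEN1 was 0.46 in S547A and 0.71 in wt cells. LIG1, which seals the fragments, was at 0.30 in S547A cells at 8 h without a call (0.173) and rose by 0.63 in wt cells (0.00736).

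In nucleotide supply, 2 of 4 genes rose at 8 h in S547A (50%) and 3 in wt cells (75%). The shares of all genes called higher were 16.1% and 16.5%. TK1, the cytosolic thymidine kinase, was at 9.38, 9.21 and 9.40 in untreated S547A cells, 9.97, 9.75 and 9.67 at 4 h, and 10.09, 10.03 and 10.19 at 8 h. In wt cells TK1 was at 9.15, 9.35 and 9.22 untreated, 9.71, 9.71 and 9.69 at 4 h, and 10.17, 10.01 and 9.98 at 8 h. The 3 times did not overlap in either line. TK1 rose at 8 h by 0.77 ± 0.11 in S547A and 0.81 ± 0.11 in wt cells (adjusted p = 6.52e-05 and 4.33e-05). At 4 h TK1 rose by 0.47 in S547A cells (adjusted p = 0.0138), a call that ended without untreated replicate 2 (0.0663) or 4 h replicate 1 (0.0602), and by 0.46 in wt cells (0.0131), which ended without untreated replicate 1 (0.0592).

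RRM2, the regulated subunit of ribonucleotide reductase, was at 8.26, 8.28 and 8.32 in untreated S547A cells, 8.84, 8.51 and 8.68 at 4 h, and 8.56, 8.72 and 8.90 at 8 h. In wt cells RRM2 was at 8.14, 8.35 and 8.25 untreated, 8.73, 8.36 and 8.76 at 4 h, and 8.61, 8.95 and 8.75 at 8 h. Etoposide arrays lay above the untreated arrays of their line, while those of 4 h and 8 h overlapped with each other. RRM2 rose at 8 h by 0.44 ± 0.14 in S547A and 0.52 ± 0.14 in wt cells (adjusted p = 0.0218 and 0.00816). The S547A call ended without untreated replicate 1 (0.0588) or 2 (0.0537) or 8 h replicate 3 (0.0995). RRM1, the large subunit, was at 0.24 in S547A cells without a call and rose by 0.40 in wt cells (0.0382), and TYMS, thymidylate synthase, was not called in either line.

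Of the 5 measured S-phase regulators, 1 rose at 8 h in S547A (20%) and 2 in wt cells (40%). The shares of all genes called higher were 16.1% in S547A and 16.5% in wt cells. DTL, the substrate receptor of the CRL4 ubiquitin ligase that removes CDT1 in S phase, was at 8.73, 8.98 and 9.05 in untreated S547A cells, 9.26, 9.74 and 9.31 at 4 h, and 9.94, 10.54 and 9.74 at 8 h. In wt cells DTL was at 8.87, 9.03 and 9.06 untreated, 9.40, 9.64 and 9.49 at 4 h, and 9.83, 9.87 and 9.96 at 8 h. S547A replicate 2 was the highest array at both etoposide times, and no etoposide array overlapped with the untreated ones of its line. DTL rose at 8 h by 1.15 ± 0.18 in S547A and 0.90 ± 0.18 in wt cells (adjusted p = 0.000115 and 0.00103), and its 4 h changes of 0.52 and 0.53 were not called (0.0827 and 0.0721).

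CCNE1, the gene for cyclin E1, which activates CDK2 at the G1/S transition, was singled out after its values were seen because it was high at 4 h alone. It was at 7.58, 7.85 and 7.69 in untreated S547A cells, 8.25, 8.19 and 8.35 at 4 h, and 7.78, 7.48 and 7.63 at 8 h. In wt cells CCNE1 was at 7.87, 7.71 and 7.75 untreated, 8.34, 8.15 and 8.14 at 4 h, and 7.76, 7.89 and 7.85 at 8 h. The 4 h arrays lay above all other arrays of their line.

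CCNE1 rose at 4 h by 0.56 in S547A and 0.43 in wt cells (adjusted p = 0.00506 and 0.0231) and was at -0.08 and 0.06 at 8 h without a call. The wt call at 4 h ended without untreated replicate 2 or 3 or 4 h replicate 1 (adjusted p up to 0.106). Between 4 h and 8 h CCNE1 fell by 0.64 in S547A and 0.38 in wt cells (adjusted p = 0.00176 and 0.0401); the wt call ended when any 1 array was left out, with adjusted p up to 0.157. Its other probe, detected on 9 arrays, was at 0.30 in S547A and -0.01 in wt cells at 4 h without a call. With the mean of both probes standing for CCNE1, its 4 h calls ended in both lines. CLSPN, the gene for the checkpoint adaptor claspin, was not detected on any untreated S547A array and was detected on 2 of 3 at 8 h. Its S547A change at 8 h was not called (limma, adjusted p = 0.0706), and its size is uncertain. In wt cells CLSPN was called higher at 8 h (adjusted p = 0.00195); it was detected on 3 of 3 arrays at 8 h and on 1 of 3 untreated arrays, so the size of its rise is uncertain. SLBP, which binds histone mRNA, and UHRF1, which guides maintenance methylation, were not called at either time in either line.

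**Figure D4:**
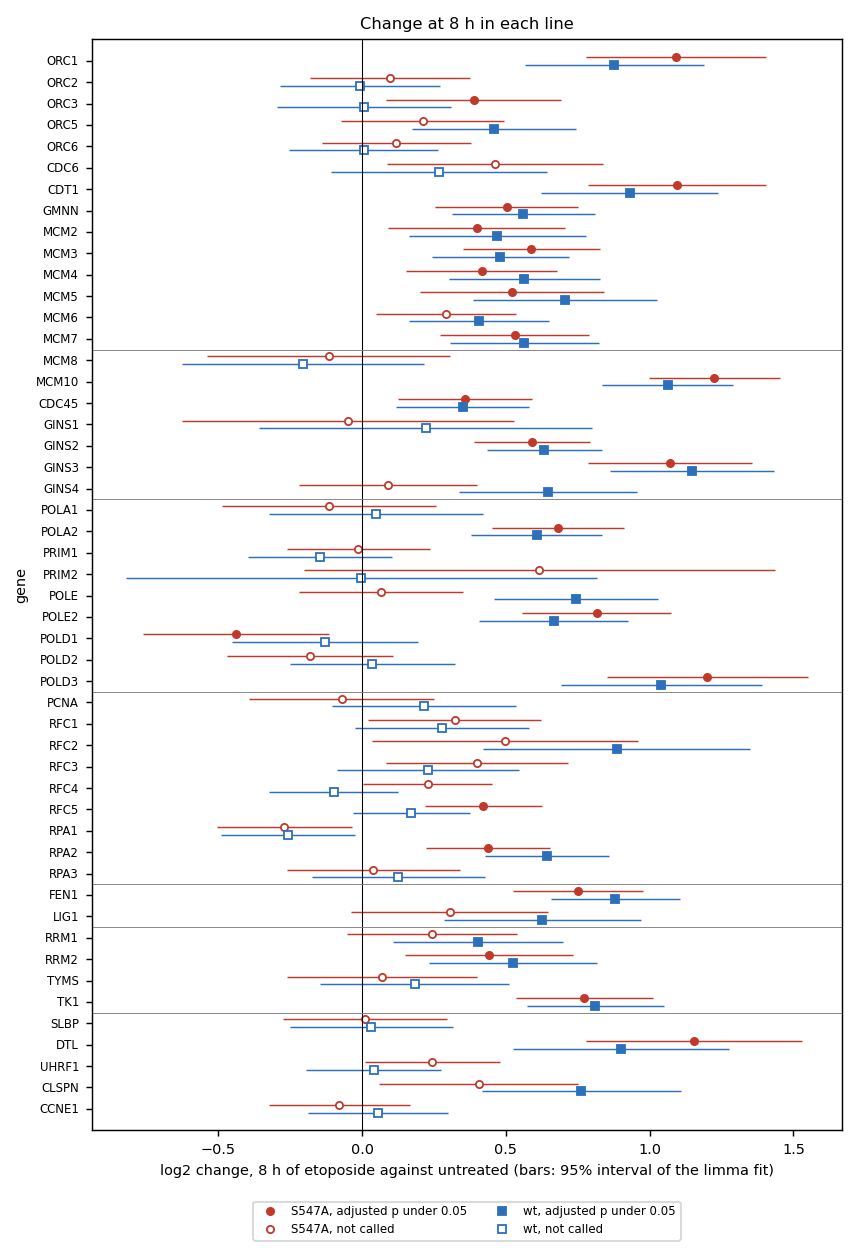
Log2 change of each of the 50 genes between 8 h of etoposide and untreated cells, S547A as red circles above wt as blue squares, with 95% intervals of the limma fit and filled marks for an adjusted p under 0.05. The filled marks lie right of 0 except POLD1 in S547A cells, at -0.44, and MCM10, GINS3 and POLD3 lie beyond 1 in both lines.

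At 4 h fewer genes had moved. In S547A cells 8 of the 50 genes rose and 1 fell, where 9.51% of all genes were called, 5.67% as higher and 3.83% as lower. In wt cells 9 rose and 2 fell, where 10.4% of all genes were called, 6.25% as higher and 4.17% as lower. MCM10, GINS3, FEN1, TK1 and CCNE1 rose in both lines, which is 62.5% of the 8 in S547A and 55.6% of the 9 in wt cells. ORC1, CDC6 and POLD3 were called in S547A cells alone, and CDT1, GMNN, MCM4 and GINS4 in wt cells alone. The median change of the 50 genes was 0.15 in both lines, beside -0.002 in S547A and 0.002 in wt cells over all genes. The 4 h and untreated arrays did not overlap for 23 genes in each line, where 25.5% of all genes showed no overlap in S547A and 30.2% in wt cells.

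Between 4 h and 8 h, 15 of the 50 genes rose and 2 fell in S547A cells, where 15.4% of all genes were called, 8.28% as higher and 7.13% as lower. In wt cells 14 rose and 1 fell over this interval, where 13.4% of all genes were called, 8.1% as higher and 5.32% as lower. The 8 h and 4 h arrays did not overlap for 28 of the 50 genes in each line, where 29.8% of all genes showed no overlap in S547A and 32.7% in wt cells. ORC1, MCM7, MCM10, GINS2, GINS3, POLA2, POLE2, POLD3 and RPA2 were higher at 8 h than at 4 h in both lines, which is 60% of the S547A and 64.3% of the wt calls. Of these, only MCM10 and POLA2 kept both calls when any 1 array was left out. MCM7 kept its call in 1 of 6 such fits in S547A and 0 of 6 in wt cells. CCNE1 was lower in both lines, and RPA1 fell by 0.37 in S547A cells (adjusted p = 0.0322). ORC2 and PRIM1, the genes that dipped at 4 h, were each called higher again at 8 h in 1 line. PRIM1 rose by 0.46 in S547A cells (adjusted p = 0.0147) and was at 0.31 in wt cells without a call (0.0962). ORC2 rose by 0.48 in wt cells (0.0233) and was at 0.38 in S547A cells without a call. With 1 array left out, the PRIM1 call held in 5 of 6 fits and the ORC2 call in 1 of 6. The median change over this interval was 0.24 in S547A and 0.27 in wt cells, beside -0.001 in S547A and 0.01 in wt cells over all genes.

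These counts moved with single arrays. At 4 h the S547A count of 9 was 6 without untreated replicate 2 or 3 or without 4 h replicate 3, and the wt count of 11 was 6 without untreated replicate 1 and 7 without 4 h replicate 1. Between 4 h and 8 h the S547A count of 17 was 8 without 4 h replicate 3 or 8 h replicate 2, 9 without 8 h replicate 3 and 10 without 4 h replicate 1, and the wt count of 15 was 8 without 4 h replicate 1 or 8 h replicate 3, 9 without 4 h replicate 2 or 3 or 8 h replicate 1, and 10 without 8 h replicate 2. With the compared groups alone in the fit, FEN1 was the 1 gene called in S547A cells at 4 h. At 8 h the S547A count of 23 lay between 16 and 22 and the wt count of 28 between 25 and 26 with 1 array left out. The calls that held with any 1 array left out were 16 of 23 in S547A and 23 of 28 in wt cells at 8 h; those that did not were ORC3, MCM2, MCM4, MCM5, CDC45, POLD1 and RRM2 in S547A, and ORC5, MCM2, MCM6, CDC45 and RRM1 in wt cells.

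**Figure D5:**
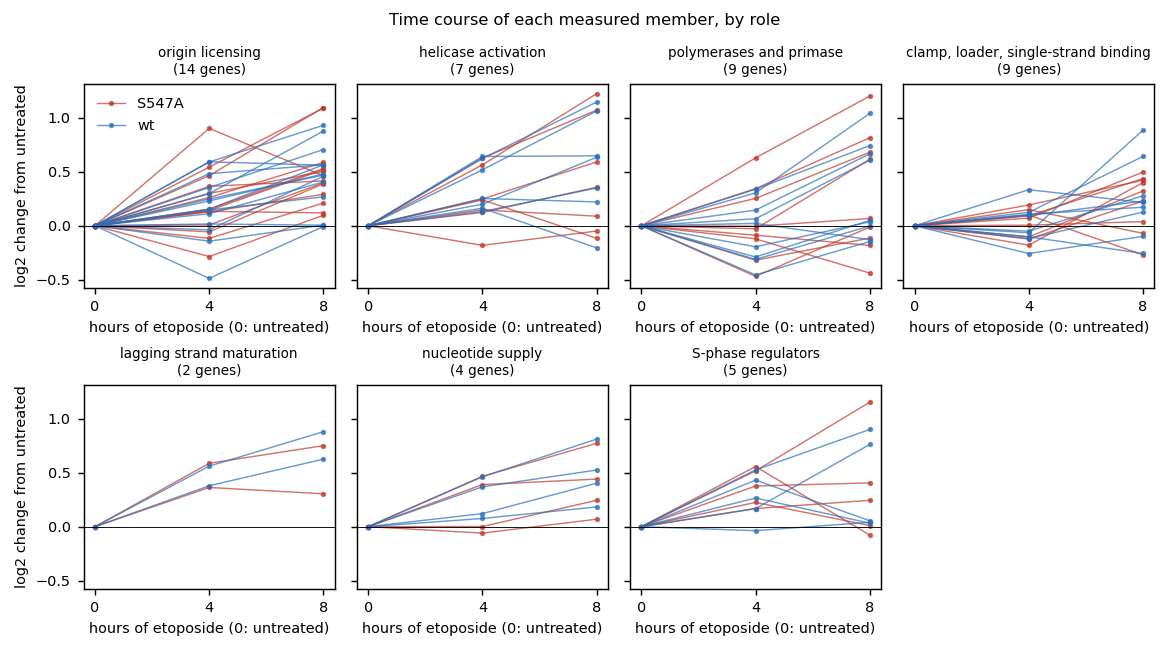
Mean log2 change from untreated of each of the 50 genes at 0, 4 and 8 h, in 1 panel per role, with S547A in red and wt in blue. The median change at 8 h was 0.44 in S547A and 0.47 in wt cells for licensing, 0.36 and 0.63 for helicase activation, and 0.53 and 0.75 for the lagging strand, where LIG1 in S547A cells did not climb after 4 h; CCNE1 and, in S547A cells, CDC6 peak at 4 h.

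No difference between the lines passed the test for any of the 50 genes. The S547A against wt comparison called 0 of 50 in untreated cells, at 4 h and at 8 h (limma), with 3, 0 and 4 genes at an unadjusted p under 0.05; 0.0415%, 0.083% and 0.108% of all genes were called. S547A and wt arrays did not overlap for 9, 3 and 8 of the 50 genes, where 12.3%, 8.54% and 12.4% of all genes showed no overlap. The response to etoposide, S547A minus wt, was called for 0 of 50 at 4 h and at 8 h, with 2 and 3 genes at an unadjusted p under 0.05, where 0.0166% and 0.0249% of all genes were called. The 95% interval of the difference in the 8 h response lay within a log2 of ±1 for 46 genes, all but GINS1, PRIM2, POLE and RFC2, and the median distance from the estimate to the end of the interval was 0.41. At 4 h it did so for 47 genes, all but CDC6, GINS1 and PRIM2.

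By brightest kept probes, POLE had the smallest adjusted p of the 50 genes for the difference in the 8 h response (limma, 0.511). POLE differed by -0.68, with an interval of -1.08 to -0.27. Its levels were 8.66, 8.45 and 8.40 in untreated S547A cells, 8.49, 8.56 and 8.45 at 4 h, and 8.38, 8.73 and 8.60 at 8 h. In wt cells POLE was at 8.12, 8.11 and 8.22 untreated, 8.35, 8.66 and 8.46 at 4 h, and 8.72, 9.15 and 8.81 at 8 h. The untreated S547A arrays thus lay above the untreated wt arrays, and the S547A arrays overlapped across the 3 times.

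The untreated GINS4 arrays of S547A also lay above those of wt, at 7.56, 7.55 and 7.46 against 7.00, 7.20 and 7.07. The difference was 0.43 (limma, adjusted p = 0.70). CDC6 had a lower mean in untreated S547A than in untreated wt cells, with a difference of -0.50 (limma, adjusted p = 0.727), and S547A minus wt in its 4 h response was 0.76 (adjusted p = 0.799). POLE, GINS4 and CDC6 were picked for these values, and none of the differences passed the adjustment over all genes.

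Probes of the same gene often disagreed; adjusted p-values in this paragraph are over all kept probes. Of 20 genes with more than 1 kept probe, 12 had probes that differed at 8 h in sign or in call: ORC5, ORC6, MCM3, MCM4, MCM7, MCM8, POLA1, PCNA, RFC2, RPA1, UHRF1 and CCNE1. ORC5, MCM8, POLA1, PCNA, UHRF1 and CCNE1 differed in sign. ORC6, a subunit of the origin complex, was at 0.12 in S547A and 0.01 in wt cells at 8 h by the probe that stands for it, while its other probe rose by 0.80 in S547A and 1.19 in wt cells (adjusted p = 0.00184 and 5.74e-05). The second probe of UHRF1 was at -0.30 in S547A cells (0.155) and rose by 0.76 in wt cells (0.00117). Its difference in the 8 h response, S547A minus wt, was -1.06 without a call (limma, adjusted p = 0.177). By the same fit over probes, that of POLE was -0.68 (0.634). The second probe of MCM8 was at 0.48 in S547A cells (0.108) and rose by 0.75 in wt cells (0.013). A second probe of RPA1 fell at 8 h by 0.49 in S547A and 0.39 in wt cells (adjusted p = 0.00416 and 0.0205).

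Of 17 G1/S regulators, 5 rose and 2 fell at 8 h in S547A cells (41.2% called, against 30.5% of all genes), and 6 rose and 2 fell in wt cells (47.1%, against 29.7%). E2F2, an activating E2F, rose by 1.46 in S547A and 1.63 in wt cells. E2F8, an atypical E2F, was not detected on any untreated array of either line, so its 8 h rise is a bound of at least 2.19-fold in S547A and 2.16-fold in wt cells (adjusted p = 9.92e-06 and 4.33e-05). CDC25A, the phosphatase that activates CDK2, rose by 1.46 in S547A and 1.43 in wt cells. CCND1, the gene for cyclin D1, fell by 0.74 in S547A and 0.60 in wt cells (adjusted p = 0.000125 and 0.000767), and CDK6, a partner of the D cyclins, by 0.42 and 0.54 (0.0165 and 0.00376).

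Firing and fork factors outside the list of 51 were mixed. Of the 18 measured of 22, 7 rose and 2 fell at 8 h in S547A cells (50% called, against 30.5% of all genes), and 4 rose and 1 fell in wt cells (27.8%, against 29.7%). TICRR, which helps to bring CDC45 to origins, rose by 1.43 in S547A and 1.44 in wt cells (adjusted p = 3.16e-05 and 3.1e-05). POLE3, a histone-fold subunit of polymerase epsilon, rose by 0.72 in S547A and 0.81 in wt cells, and TIPIN, of the fork protection complex, by 0.81 and 0.69. PIF1, a helicase, fell by 0.66 in S547A and 0.71 in wt cells (0.01 and 0.00641), and ORC4 fell by 0.60 in S547A cells (0.0144) and was at -0.37 in wt cells without a call.

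Of 11 chromatin assembly and methylation genes, 4 rose and 1 fell at 8 h in S547A cells (45.5% called, against 30.5% of all genes), and 6 rose and 0 fell in wt cells (54.5%, against 29.7%). CHAF1A and CHAF1B, subunits of the histone chaperone CAF-1, rose by 0.73 and 0.62 in S547A and by 0.82 and 0.89 in wt cells. The chaperone genes ASF1A, ASF1B and NASP were not called at 8 h in either line, although ASF1B rose by 0.48 at 4 h in wt cells (adjusted p = 0.0152). SUV39H1, a histone H3 methyltransferase, rose by 0.59 in S547A and 0.78 in wt cells, and LMNB1, for lamin B1, fell by 0.53 in S547A cells (adjusted p = 0.0105). Of 13 measured nucleotide metabolism genes outside the list, 0 were called in S547A cells (limma; 3 at an unadjusted p under 0.05) and 2 rose in wt cells, CTPS1 by 0.43 and IMPDH2 by 0.37.

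Most mitotic genes fell at 4 h and part of them were higher again by 8 h. Of 21 G2/M genes, 13 fell and 0 rose at 4 h in S547A cells and 16 fell and 0 rose in wt cells, with medians of -0.70 and -0.71, where 9.51% and 10.4% of all genes were called. At 8 h 10 fell and 1 rose in S547A cells and 10 fell and 2 rose in wt cells, with medians of -0.30 and -0.39. Of all genes at 8 h, 14.3% were called lower and 16.1% higher in S547A, and 13.2% and 16.5% in wt cells. Between 4 h and 8 h 11 rose and 0 fell in S547A cells and 12 rose and 0 fell in wt cells, with medians of 0.48 and 0.44. Over that interval 8.28% of all genes were called higher in S547A and 8.1% in wt cells. The direction was the same as that of the replication genes over that interval. PLK1, a mitotic kinase, was at -1.59 in S547A and -1.77 in wt cells at 4 h and at -1.67 and -1.63 at 8 h, all 4 called. KIF20A, a kinesin of cytokinesis, was at -1.36 in S547A and -1.42 in wt cells at 4 h, called at both times in both lines. CDC20, an activator of the anaphase-promoting complex, was at -0.82 in both lines at 4 h and at -0.98 in S547A and -0.92 in wt cells at 8 h, all called. The genes called higher at 8 h were MKI67, a proliferation antigen, in S547A cells, and AURKB and BIRC5, of the chromosomal passenger complex, in wt cells. MKI67 was not detected on untreated S547A arrays, so its rise is a bound of at least 1.02-fold (adjusted p = 0.0464). AURKB was at 0.30 in S547A cells without a call (0.0551) and rose by 0.57 in wt cells (0.00115), and BIRC5 was at 0.16 in S547A cells without a call (0.402) and rose by 0.39 in wt cells (0.0385). These values stand beside the changes of the replication genes in the same arrays, and the part that cell cycle distribution has in those changes was not tested.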

How the data were processed

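The 18 arrays came deposited as 1 table with an intensity on a linear scale and a detection p-value per probe and array, per the file headers. The deposited value table, linear intensity already normalized by the authors, served as an alternative. The submitters' processing notes name GenomeStudio, with no version. neqc in limma 3.58.1 (R 4.3.3, offset 16) removed background by means of the detection p-values, equalised the arrays' quantiles and gave log2 values. A probe was kept where its detection p was under 0.05 on 3 arrays or more (22161 probes), and each of 12055 genes was represented by its brightest kept probe. One limma model held the 6 group means (12 residual degrees of freedom, two-sided, Benjamini-Hochberg adjustment over all genes). It was tested on simulated data with noise that was independent between arrays. Likeness of arrays with the same replicate number was therefore not part of that test. The 3 arrays per group limit the precision.

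The 51 genes and the other lists were chosen with earlier results of these data known. By rule, values on every array are given per role for up to 3 genes called higher and 2 called lower at 8 h in both lines, and for up to 4 called lower at 4 h or 8 h in either. CCNE1, POLE, GINS4 and CDC6 were singled out after their values were seen. Of each other list up to 3 called genes per direction were named by their mean 8 h change. Other choices of background correction, scaling, offset, filter, probe, variance model, weights and arrays were tried. Promoters and gene names came from RefSeq (GRCh38.p14). Probe positions within transcripts were not used here.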

Additional observations from a re-analysis of the deposited data

How the results depend on the processing

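The genes named by rule had been picked for their calls, and only their called changes against untreated cells were re-estimated, so high retention was favoured. Of these 731 re-estimates, 683 kept direction and call, 48 kept direction and lost the call, and 0 changed sign. CCNE1, POLE, GINS4 and CDC6 were not among them. Of all calls in the 50 genes, every alternative kept 1 of 9 in S547A and 4 of 11 in wt cells at 4 h. At 8 h it was 12 of 23 and 21 of 28, and between the times 1 of 17 and 4 of 15. With 1 array left out, the genes called of 50 ranged from 6 to 8 in S547A cells and 6 to 10 in wt cells at 4 h, from 16 to 22 and 25 to 26 at 8 h, from 8 to 15 and 8 to 10 between 4 h and 8 h, and from 0 to 0 for the lines and for the difference in response. When only the compared groups were fitted, with fewer degrees of freedom, 1 gene was called in S547A cells at 4 h, and 2 in S547A and 9 in wt cells between 4 h and 8 h. Over the other alternatives the count was 1 to 13 in S547A and 8 to 12 in wt cells at 4 h, 16 to 28 and 24 to 30 at 8 h, and 2 to 24 and 9 to 17 between the times. Scaling to a common median moved the median of all genes by -0.10 at 8 h in S547A cells, where the 50 genes then had a median of 0.20, with 16 higher and 2 lower, and in wt cells a median of 0.28, with 23 higher and 1 lower; the cause was not tested. The replicate number was also fitted as a block, which the main fit left out, although the labels do not say what arrays of the same number share. After removal of group means, 14 of 45 same-numbered pairs correlated above 0.1, with a median r of 0.07 against -0.04 for other pairs. Outside its own group, 15 of 18 arrays correlated best with an array of their own number, so arrays of the same number were somewhat alike. With the block, 10 genes were called in S547A and 12 in wt cells at 4 h, 24 and 28 at 8 h, 19 and 17 between the times, and 0 between the lines and in the difference of response. Dim probes limit what can be said of GINS1, PRIM2, CLSPN and CCNE2.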
